A study of Mus musculus with 38 samples.

Results

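The genes described here encode the nuclear subunits of the mitochondrial respiratory chain (complexes I to IV) and of ATP synthase (complex V) in mouse pluripotent cells. They were picked by a naming rule, as the protein-coding genes whose symbols begin with Nduf and one of the letters a, b, c, s or v before a number, with Uqcr, with Cox4 to Cox8 or with Atp5, together with Sdha, Sdhb, Sdhc and Sdhd. The naming rule itself uses no measured value. The rule found 84 of the 29267 genes in the tables, of which 37 belong by symbol to complex I, 4 to complex II, 8 to complex III, 18 to complex IV and 17 to complex V. A further 13 symbols matched the pattern but were pseudogenes, a non-coding RNA or a second gene entry of Atp5o, and were left out. The symbol is an old guide to function for a few members. Ndufa4 is now placed in complex IV, Cox7a2l helps to assemble supercomplexes of complexes III and IV, and Atp5s is a coupling factor of ATP synthase and not one of its core subunits.

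RNA was sequenced in 38 libraries of 18 groups. Embryonic stem cells (ESC, n = 5) are naive cells grown in N2B27 medium with LIF and inhibitors of MEK and GSK3, and epiblast stem cells (EpiSC, n = 4) are primed cells kept in FN medium with Activin A and bFGF. The labels give the strain CBA/CaJ X C57BL/6J for ESC replicates 1 and 2 only, while the methods of the study describe another cross. kEpiSC (n = 2) are EpiSC with an integrated Klf4 transgene, which the study places under a CAG promoter, and an Oct4-GFP reporter. Moved into iCD1, a chemically defined reprogramming medium, they were followed through PNT, the passage from the primed to the naive state, with 2 libraries on each of days 1, 2 and 3, and the induced cells that resulted are kiPSC (n = 2). A parallel course received SP600125 (n = 2, 3 and 2 on days 1, 2 and 3), named JNKi here because it inhibits the JNK family that phosphorylates c-Jun. The dose is not in the labels, and the study used several. The last 12 libraries came from WT cells and from JunKO cells, in which a pair of Cas9 guides had removed c-Jun in ESC that were then converted into EpiSC-like cells. These were read from the labels as iEpiSC, converted cells without the Klf4 transgene (n = 1 per genotype), kiEpiSC, with it (n = 1 per genotype), and the same kiEpiSC taken at day 3 from iCD1 medium with or without JNKi (n = 2 for each of these 4 groups). How many clones stand behind a line is not given in the sources used here.

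Complexes I to IV pass electrons from NADH and succinate to oxygen, complexes I, III and IV pump protons across the inner mitochondrial membrane, and complex V lets the protons return to make ATP. Subunits made in the cytosol are imported and joined to a small set made inside the mitochondrion. Several subunits of complexes IV and V come as pairs of genes whose members are used in different tissues or at different oxygen levels. Naive mouse cells are known to respire more than primed cells, which rely more on glycolysis. The subunits made inside the mitochondrion were not analysed here, since the tables hold 0 mitochondrial genes.

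Totals were 2.165 to 15.945 M counts per library, and no library was a copy of another. The 8 naive markers summed to between 3864 and 4839 CPM (counts scaled to a common depth by TMM) in ESC and between 3554 and 4565 in kiPSC, against 9.12 to 92.6 in EpiSC and 18.4 to 25.2 in kEpiSC, and the PNT libraries of day 3 held 45.5 to 72.8. Jun counted 8.76 to 9.97 CPM in JunKO iCD1 cells, against 114 to 249 in WT iCD1 cells, and Klf4 counted 71.0 to 100.3 CPM in kEpiSC, against 0.940 to 2.41 in EpiSC. Both directions are those of the labels. Klf4 also stood at 40.7 CPM in JunKO iEpiSC and 49.8 in WT iEpiSC, which are taken here to lack the transgene, and at 45.4 in JunKO kiEpiSC and 70.4 in WT kiEpiSC, which are taken to carry it. These counts do not tell the lines apart clearly, and the term for line in the fit rests on the labels. Libraries that stand apart are ESC replicates 1 to 4, whose gene lengths and effective lengths differ by 73.5 bases (133 to 192 in all others), EpiSC replicate 1, in which these genes hold the largest share of counts, and ESC replicate 5, in which 8 fibroblast markers sum to 1297 CPM (10.7 to 103 in the other ESC). EpiSC libraries varied in markers too, with fibroblast sums of 30.1 to 348 CPM, primed sums of 720 to 2714 and primitive endoderm sums of 12.5 to 126. The part of these markers in the comparisons was not tested. In bulk RNA, fewer cells of a type and less RNA per cell cannot be told apart.

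Members were short and abundant. Their median length was 689 bases against 1759 for all genes, and 62 of the 84 were under 1000 bases, as were 28.1% of all genes. On the TPM scale, which allows for length, the median member had 184 TPM in complex I, 185 in complex II, 369 in complex III, 358 in complex IV and 490 in complex V. The highest was Atp5b, the catalytic beta subunit of ATP synthase, at a mean of 2212 TPM over the 38 libraries, and the lowest of complex V was Atp5s at 7.10. Cox4i1, the common form of complex IV subunit 4, led its complex at 936 TPM, Ndufa4 led the genes named for complex I at 723, Uqcrh led complex III at 558 and Sdhd led complex II at 224. The lowest were Ndufa4l2 at 14.99 TPM, Sdhc at 152 and Uqcrfs1, the Rieske iron-sulphur protein, at 192. The heart and muscle form Cox8b had 0 counts in all 38 libraries, Cox8c had a count in 1 library, Cox6a2 in 8 and Cox7b2 in 12.

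Most of the abundant subunits had group means within 2-fold of each other. Of the members, 75 had a mean of at least 10 CPM in every group, and the ratio of their highest to their lowest group mean had a median of 1.82, with 53 of them under 2-fold. Ndufs1, the largest subunit of complex I, varied least (1.21-fold) and Ndufs7 most (3.51-fold). Of the 75, 31 were lowest in PNT day 3 and 17 highest in kiPSC. The floor of 10 CPM leaves out members that fell below it in some groups, such as Cox7a1, Cox6b2 and Ndufa4l2, which varied more. The ratio of highest to lowest group mean was not worked out for all genes, and how many of them have these extreme groups was not counted. Together the 84 genes took 0.911% and 0.875% of counts in the PNT day 3 libraries, the lowest of all, against 1.27% and 1.28% in kiPSC.

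**Figure D1:**
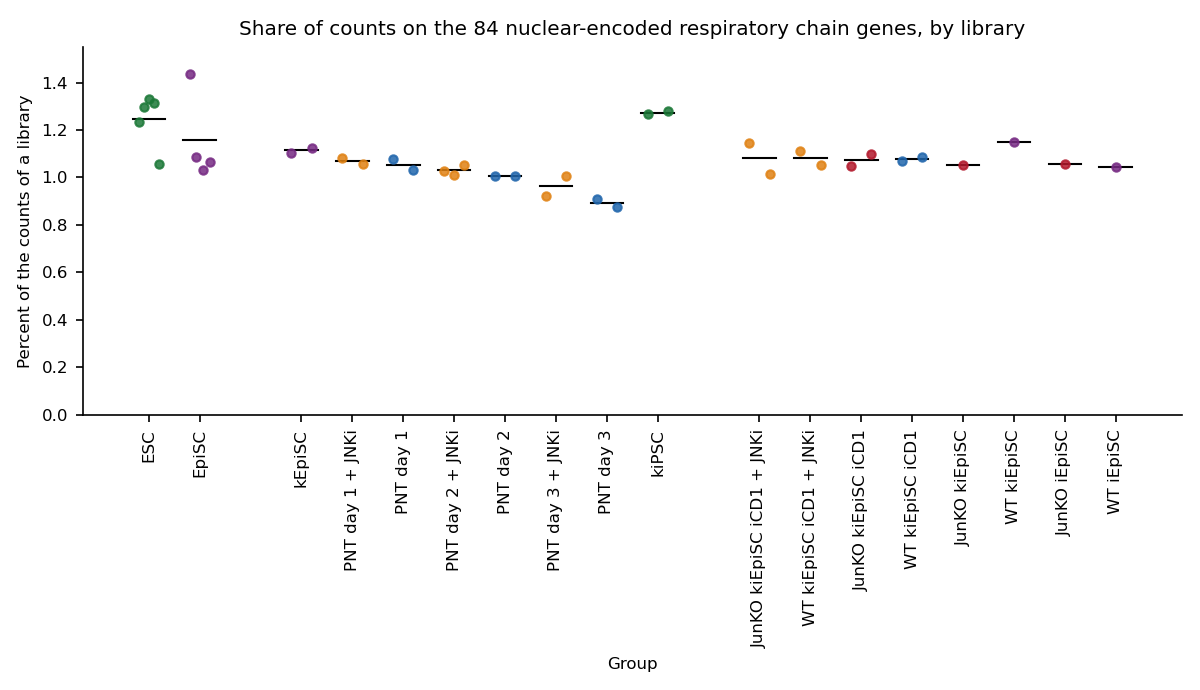
Share of each library's counts on the 84 genes, in percent on an axis from 0, with 1 point per library and a bar at the group mean. Points are green for naive cells, purple for primed cells, blue for iCD1 medium, orange for iCD1 with JNKi and red for JunKO cells outside JNKi. The share falls over kEpiSC and PNT days 1 to 3, where both day 3 libraries (0.911% and 0.875%) lie below all others, and kiPSC sit at 1.27% and 1.28%. EpiSC replicate 1 stands at 1.44%, above the other 3 EpiSC libraries (1.03% to 1.09%).

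**Figure D2:**
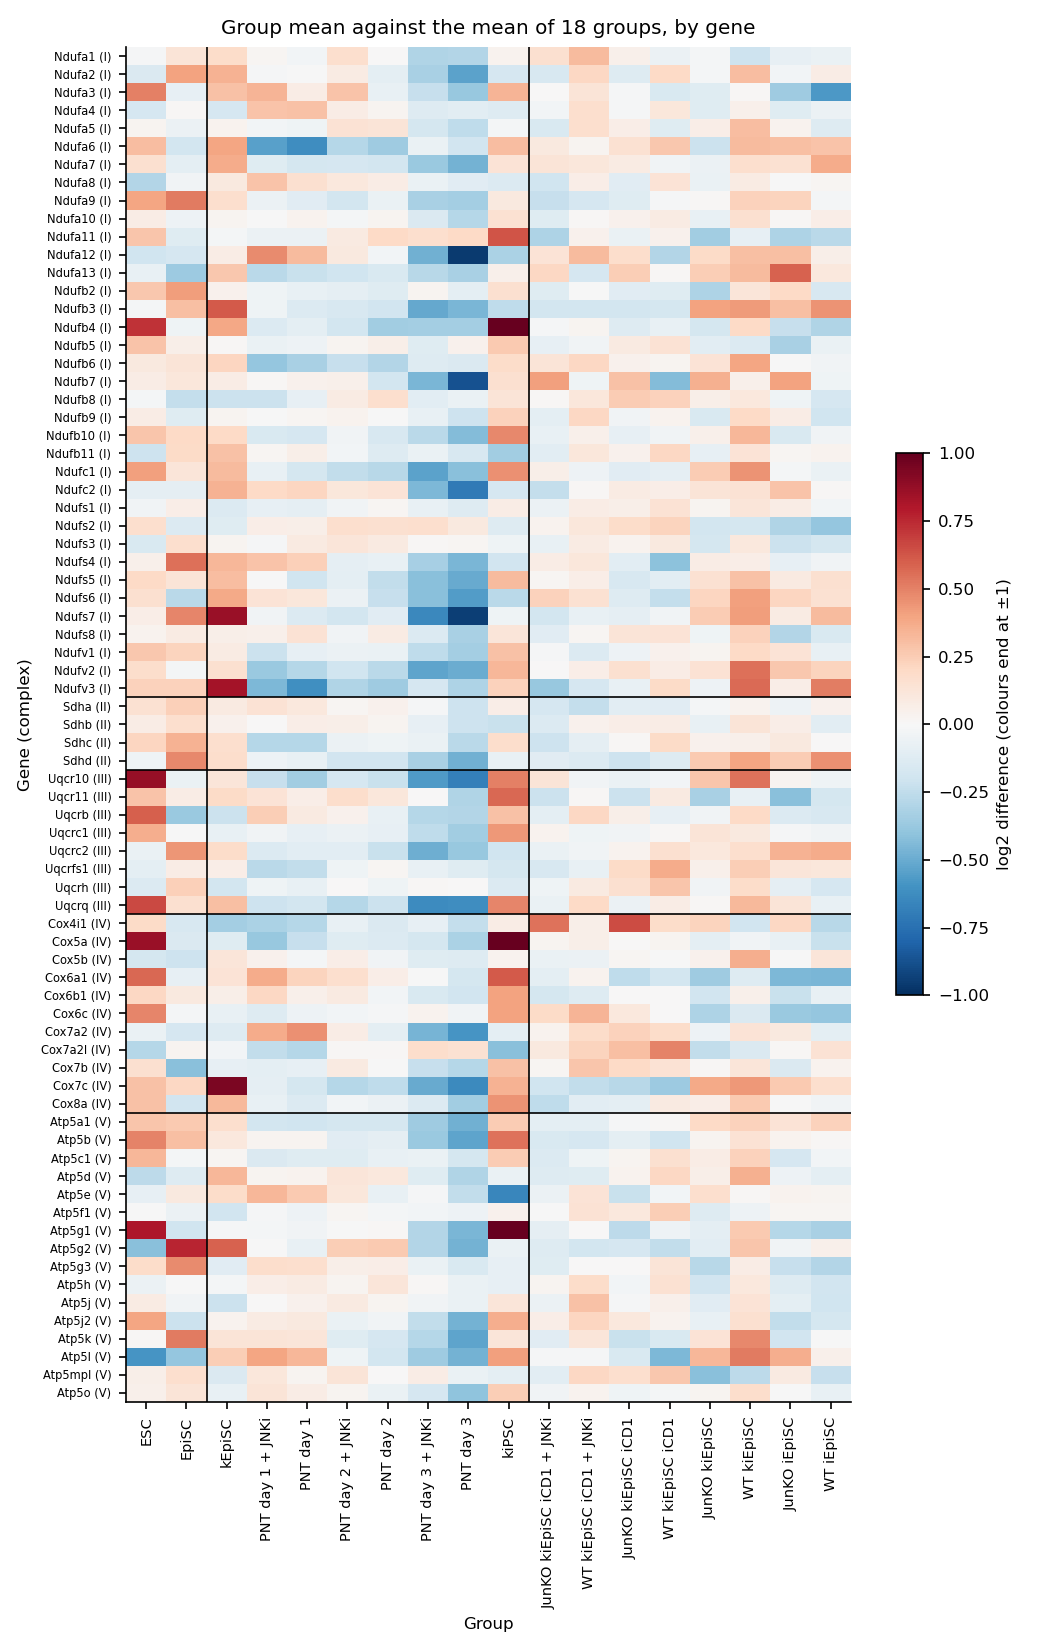
Group means of the 75 members with at least 10 CPM in every group, as the log2 difference from the mean over 18 groups, with colours ending at 1 in either direction. Rows are ordered by complex and columns by study arm. The PNT day 3 column is mostly blue and the kiPSC column mostly red, while the columns of WT and JunKO cells are pale.

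The largest changes fell on subunits with a sister gene. The promoters of Cox7a1 and Cox7a2 and of Atp5g1 and Atp5g2 are shown as examples, and those of other pairs, such as Cox6b1 and Cox6b2, are not. The windows run from 250 bases before to 50 after the annotated start (RefSeq, GRCm38.p6), and 66 of the 84 members had at least 1 window. The pairs lie apart in the mm10 genome, Cox7a1 (ENSMUSG00000074218) at chr7:30184144-30186078 and Cox7a2 (ENSMUSG00000032330) at chr9:79755361-79759878, Atp5g1 (ENSMUSG00000006057) at chr11:96068852-96075670 and Atp5g2 (ENSMUSG00000062683) at chr15:102662864-102672352. Cox7a1 and Cox7a2 encode the muscle-type and the common form of complex IV subunit 7A. Their promoters differ in CG content, and CG dinucleotides are in capitals. The Cox7a1 window (chr7:30183921-30184220, plus strand) holds 7 and the Cox7a2 window (chr9:79759804-79760103, minus strand) holds 20, against medians of 19 in member windows and 7 in all 32851 windows.
Cox7a1: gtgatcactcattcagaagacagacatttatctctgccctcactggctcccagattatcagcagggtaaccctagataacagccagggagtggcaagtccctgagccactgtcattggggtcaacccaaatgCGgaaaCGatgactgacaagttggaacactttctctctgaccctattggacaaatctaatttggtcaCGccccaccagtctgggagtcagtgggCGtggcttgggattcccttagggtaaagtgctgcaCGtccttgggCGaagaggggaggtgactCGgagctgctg
Cox7a2: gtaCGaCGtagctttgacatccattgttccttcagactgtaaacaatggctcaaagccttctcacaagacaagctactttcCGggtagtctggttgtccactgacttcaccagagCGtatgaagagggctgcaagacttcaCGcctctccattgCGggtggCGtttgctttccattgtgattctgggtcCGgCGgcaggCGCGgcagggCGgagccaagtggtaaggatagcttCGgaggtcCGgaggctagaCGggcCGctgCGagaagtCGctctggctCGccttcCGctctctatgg
Atp5g1 and Atp5g2 make the same proton-carrying subunit c with different import signals. The annotated start used for Atp5g2 lies inside the gene span printed above and not at its upstream end. The Atp5g1 window (chr11:96075582-96075881, minus strand) holds the AP-1 letters TGAGTCA, in capitals from position 257, and the Atp5g2 window (chr15:102670998-102671297, minus strand) holds the NRF1 core CGCATGCG, in capitals from position 210, counted from 1 at the 5′ end.
Atp5g1: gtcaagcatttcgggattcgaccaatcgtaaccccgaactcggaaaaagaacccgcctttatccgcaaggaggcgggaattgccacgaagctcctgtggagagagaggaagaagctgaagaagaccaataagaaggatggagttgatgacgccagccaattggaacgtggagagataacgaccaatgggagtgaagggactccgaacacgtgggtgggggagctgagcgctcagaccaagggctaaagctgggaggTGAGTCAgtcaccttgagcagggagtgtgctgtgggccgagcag
Atp5g2: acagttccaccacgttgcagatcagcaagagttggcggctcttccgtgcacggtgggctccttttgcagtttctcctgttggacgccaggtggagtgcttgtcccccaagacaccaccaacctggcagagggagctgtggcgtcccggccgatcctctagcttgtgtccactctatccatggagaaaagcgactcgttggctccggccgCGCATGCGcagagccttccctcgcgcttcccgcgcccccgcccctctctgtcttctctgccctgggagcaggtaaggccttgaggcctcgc
Both strands were searched for each motif. The NRF1 core was in 9 of the 71 member windows (12.7%, against 1.87% of all windows), and the AP-1 letters were in 6 (8.45% against 5.20%), those of Atp5c1, Atp5g1, Ndufa13, Ndufa5, Ndufa9 and Uqcrh. The ETS letters CCGGAAG were in 16 windows (22.5% against 8.86%), the YY1 letters AAGATGG in 10 (14.1% against 6.34%) and the ERR letters AAGGTCA in 8 (11.3% against 4.72%). The NRF1 and ETS letters hold CG, in which member windows are richer (median 19 against 7), and the shares were not adjusted for this. Windows of the same start can overlap, and a match is a description of these letters only.

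Naive ESC and primed EpiSC were compared first. The filter on low counts passed 80 of the 84 members and left out Cox4i2, Cox6a2, Cox8b and Cox8c. Of the 80, 18 were higher and 7 lower in ESC (27.1% and 23.8% of the 13923 genes tested were called in these directions), with a median log2 fold change of 0.08 against 0.03 for all genes and 0.13 for the 1164 genes under 1000 bases. Complex IV had 7 higher and 0 lower of 14, complex I had 5 and 3 of 37, complex III had 3 and 1 of 8, complex V had 3 and 2 of 17, and complex II had 0 and 1 of 4.

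Cox7a1 had 22.1, 19.6, 14.5, 12.1 and 22.8 CPM in ESC, against 3.76, 4.75, 3.44 and 4.04 in EpiSC (log2 fold change 2.20 ± 0.28, edgeR adjusted p = 3.21e-05). The groups did not overlap, and every ESC library stood far above every EpiSC library. Cox5a, a subunit on the matrix side of complex IV, had 332, 380.0, 349, 376 and 286 CPM in ESC, against 221, 157, 145 and 162 in EpiSC (1.02 ± 0.13, edgeR adjusted p = 4.39e-05). The ESC libraries again lay above all EpiSC libraries. Cox7b2, a testis form of subunit 7B, had a total of 56 counts in the ESC libraries and 0 in EpiSC, which makes it at least 7.76-fold higher in ESC, with 3 counts set over the EpiSC group. It was low even in ESC, at 3.41, 2.51, 0.460, 1.12 and 2.80 CPM. The other called genes of complex IV were Cox6c, Cox6a1, Cox7b and Cox8a, the last 3 with log2 fold changes of 0.67, 0.59 and 0.50.

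The 3 subunit c genes of complex V divided. Atp5g1 had 259, 267, 195, 299 and 171 CPM in ESC, against 203, 83.6, 82.6 and 105 in EpiSC (1.02 ± 0.26, edgeR adjusted p = 0.00521), and Atp5g2 had 125, 126, 134, 114 and 182 in ESC, against 366, 294, 315 and 258 in EpiSC (-1.16 ± 0.14, edgeR adjusted p = 2.74e-05). EpiSC replicate 1 overlapped the ESC range for Atp5g1, while no library overlapped for Atp5g2. Atp5g3 was not called (-0.27). On the TPM scale Atp5g1 supplied 31.1% to 44.3% of subunit c transcripts in ESC, against 14.6% to 20.1% in EpiSC, and Atp5g2 supplied 15.2% to 27.5%, against 30.6% to 46.6%. RSEM splits reads between these genes and related copies, and the counts of Atp5g1 and Atp5g2 were not whole in 89.5% and 100.0% of libraries, so their levels rest on that split.

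In complex III, Uqcrb and Uqcr10, 2 of the small subunits, were higher in ESC. Uqcrb had 126, 141, 129, 159 and 122 CPM in ESC, against 96.8, 60.2, 55.8 and 63.5 in EpiSC (0.99 ± 0.18, edgeR adjusted p = 0.00052), with no overlap. Uqcr10 rose by 0.94 and Uqcrc1 by 0.38 on the log2 scale, whereas the other core protein, Uqcrc2, fell to 170.3, 152, 200.4, 181 and 141 CPM in ESC, against 284, 222, 223 and 230.1 in EpiSC. In complex I the called genes with the clearest values were Ndufb4, an accessory subunit of the membrane arm (65.3, 71.7, 67.2, 80.1 and 70.4 CPM in ESC, against 42.3, 42.0, 43.4 and 39.6 in EpiSC, 0.78 ± 0.11, edgeR adjusted p = 9.89e-05), and, in the other direction, Ndufa2 (-0.53). Ndufs4 and Ndufb11 were lower as well, and Ndufa11, Ndufa6, Ndufa3 and Ndufa4l2 higher. Uqcrb, Uqcr10 and Ndufb4 were singled out after their values were seen. In complex II, Sdhd, a membrane anchor of succinate dehydrogenase, fell to 129, 137, 152, 138 and 136 CPM in ESC, against 259, 173, 169.7 and 194 in EpiSC (-0.51 ± 0.13, edgeR adjusted p = 0.00491). Core subunits of the complexes were mostly not among the calls. Ndufs1, Ndufv1, Sdha, Sdhb, Uqcrfs1, Cox4i1, Atp5a1 and Atp5b had log2 fold changes between -0.16 and 0.37. Of complex V, Atp5c1 and Atp5j2 were higher as well, and Atp5k (-0.48) lower.

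Ndufa4l2, a relative of Ndufa4 that is known to be induced at low oxygen, was called higher in ESC, where 1 library stood far above the rest. It had 0.682, 1.598, 47.6, 1.12 and 4.21 CPM in ESC replicates 1 to 5, against 0, 0.730, 1.03 and 0.367 in EpiSC (4.25 ± 1.42, edgeR adjusted p = 0.0232), and the call was lost without EpiSC replicate 2 or 4 (adjusted p = 0.0539 and 0.0589). Without ESC replicate 3 the log2 fold change was 1.85 (adjusted p = 0.0458). ESC replicate 3 also held 4.37 CPM of Cox4i2, the low-oxygen form of subunit 4, where the other ESC libraries held 0.228 to 0.934 and EpiSC 0. In the same library Ldha, lactate dehydrogenase A, stood at 2384 CPM (547 to 719 in the other ESC), and Slc16a3, a lactate exporter, at 288 (21.8 to 46.7). Their part in the result was not tested, and both were named after their values were seen.

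How gene length was treated moved the balance of the ESC calls. With an offset for effective length the split was 14 higher and 17 lower, with the trend on gene length removed 14 and 24, and with ESC replicate 5 as the only ESC library 5 and 5, with member medians of -0.07, -0.13 and -0.15. Of the 18 genes higher as deposited, 12 were higher in both length settings (Atp5c1, Atp5g1, Atp5j2, Cox5a, Cox7a1, Cox7b, Cox7b2, Ndufa11, Ndufa4l2, Ndufb4, Uqcr10 and Uqcrb), and 5 of them with ESC replicate 5 alone. All 7 lower genes were lower in both length settings, and 3 with replicate 5 alone. Cox8a had 224, 259.7, 278, 283 and 137 CPM in ESC, against 225, 150.01, 148 and 152 in EpiSC, and its log2 fold change was -0.27 with replicate 5 alone. Without EpiSC replicate 1 the count of calls was 33 and the member median 0.24, and Atp5k and Uqcrc2 lost their calls (adjusted p = 0.291 and 0.0718). Cox8a and Uqcrc1 lost theirs without any one of ESC replicates 1 to 4 or EpiSC replicates 2 to 4, and Atp5k without any one of ESC replicates 1 to 4.

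**Figure D3:**
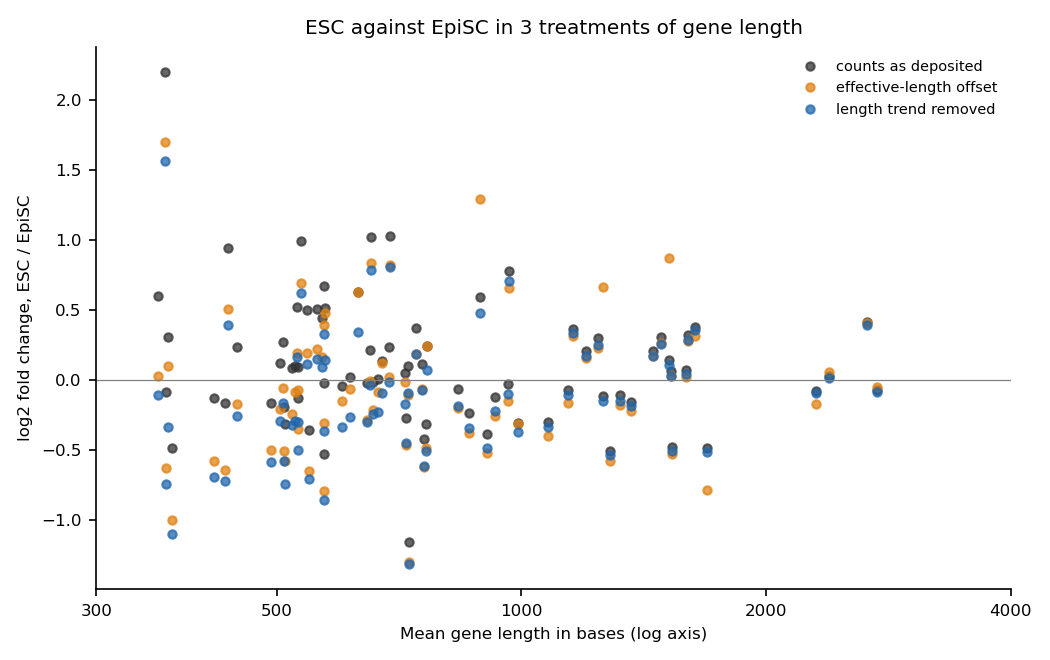
Log2 fold change of ESC over EpiSC for each member against its mean length in bases on a log axis, for counts as deposited (black), with an effective-length offset (orange) and with the length trend removed (blue). Cox7b2 and Ndufa4l2 lie above the axis. Most of the shorter members, at the left, sit lower in orange and blue than in black, and Cox7a1, the highest point in each colour, stays above the rest.

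In primed medium, 1 member was called between cells with and without the Klf4 transgene. Of 80, 1 was higher and 0 lower in kEpiSC than in EpiSC (0.941% and 0.323% of all genes), and by unadjusted p under 0.05 10 were higher and 3 lower, while DESeq2 called 2 higher and 0 lower. Cox7c, a small subunit of complex IV, had 322 and 314 CPM in kEpiSC, against 183, 200.4, 198 and 186 in EpiSC (0.71 ± 0.11, edgeR adjusted p = 0.0066). The groups lay far apart, but with 1 kEpiSC library left out the adjusted p was 0.093 or 0.115. Ndufa4l2 had 31.1 and 38.1 CPM in kEpiSC, against 0, 0.730, 1.03 and 0.367 in EpiSC, and was not called (adjusted p = 0.0783).

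PNT day 1 was compared with kEpiSC for the first day in iCD1 medium. On PNT day 1, 3 of 80 members were higher and 25 lower than in kEpiSC (23.2% and 23.1% of the 14892 genes tested, with Cox6a2, Cox7b2, Cox8b and Cox8c under the filter), with a member median of -0.13 against 0.00 for all genes and -0.18 for those under 1000 bases. Complex I had 1 higher and 14 lower of 37, complex II 0 and 1 of 4, complex III 0 and 2 of 8, complex IV 1 and 4, and complex V 1 and 4 of 17. Of the 1290 genes under 1000 bases, 12.3% were called higher and 26.5% lower. With the length trend removed the split was 7 higher and 18 lower with a median of -0.00.

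The largest falls were in the optional isoforms. Ndufa4l2 fell to 1.61 and 1.64 CPM on day 1, against 31.1 and 38.1 in kEpiSC (-4.41 ± 0.69, edgeR adjusted p = 0.000103). Cox6b2, a testis form of subunit 6B, fell to 6.83 and 6.22 CPM, against 50.04 and 47.8 (-2.91 ± 0.28, edgeR adjusted p = 9.02e-07), and Cox7a1 to 1.12 and 0.470, against 3.71 and 4.09 (-2.30 ± 0.42, edgeR adjusted p = 0.000361). In each, both day 1 libraries were far below both kEpiSC libraries. The common forms did not follow. Cox6b1 had 150.09 and 156 CPM on day 1, against 156 and 154 in kEpiSC, and Cox7a2 rose to 159 and 155, against 107 and 102 (0.58 ± 0.11, edgeR adjusted p = 0.000612). On the TPM scale Cox6b2 made up 3.48% and 4.10% of subunit 6B transcripts on day 1, against 23.4% and 24.4% in kEpiSC.

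Among subunits without a sister gene, Cox7c fell to 143 and 151 CPM on day 1, against 322 and 314 in kEpiSC (-1.12 ± 0.10, edgeR adjusted p = 5.18e-07) and was then below its EpiSC level too. Ndufv3, an accessory subunit of the NADH-binding module, fell to 38.8 and 38.4 CPM, against 98.8 and 112 (-1.46 ± 0.14, edgeR adjusted p = 9.6e-07). Ndufs7, which carries the last iron-sulphur cluster before ubiquinone, fell to 49.7 and 41.6, against 91.8 and 91.2 (-1.02 ± 0.17, edgeR adjusted p = 0.000133). In these 3 genes the day 1 libraries lay well below the kEpiSC libraries, and Cox7c and Ndufs7 were singled out after their values were seen. Ndufa6 (-1.03), Atp5g2 (-0.68) and Atp5a1, the alpha subunit of ATP synthase (-0.38), fell too. Ndufa4 (0.45) and Atp5g3 (0.27) rose, and Atp5s fell (-1.17), but these calls were lost without PNT day 1 replicate 1 (Ndufa4 and Atp5g3) or without PNT day 1 replicate 2 or kEpiSC replicate 2 (Atp5s), and that of Atp5g3 also without either kEpiSC library. The 8 fibroblast markers summed to 104 to 112 CPM on day 1, against 41.9 to 51.5 in kEpiSC. The 6 primitive endoderm markers summed to 103 to 115, against 19.2 to 32.8. The 5 neural markers summed to 67.2 to 82.6, against 59.05 to 67.3. The part of these markers in the result was not tested. The count of 28 was 18 without kEpiSC replicate 2 and 17 without PNT day 1 replicate 2.

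Few members were called between day 2 and day 1. Of 80 members 0 were higher and 2 lower (7.1% and 9.38% of all genes), by unadjusted p under 0.05 4 were higher and 5 lower, and DESeq2 called 2 and 2. Cox7a2 fell back to 113 and 101 CPM on day 2, against 159 and 155 on day 1 (-0.55 ± 0.11, edgeR adjusted p = 0.00313), and Atp5l, subunit g of ATP synthase, to 93.6 and 87.6, against 133 and 126 (-0.52 ± 0.12, edgeR adjusted p = 0.00663). Neither pair overlapped. The count was 1 without PNT day 1 replicate 1, 3 without PNT day 2 replicate 1 and 0 without PNT day 2 replicate 2. Ndufa4l2 was uneven on day 2, with 2.07 and 10.2 CPM in its 2 libraries.

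Between day 2 and day 3 most members went down in value, and every called one was lower on day 3. Of 80 members 0 were higher and 14 lower on day 3 (6.13% and 6.1% of all genes), and by unadjusted p under 0.05 0 were higher and 33 lower, while DESeq2 called 0 and 15. The member median was -0.25, against 0.01 for all genes and -0.07 for those under 1000 bases, and 8 of the 80 fold changes were above 0. Under the alternatives the median lay between -0.20 and -0.27. Of the genes under 1000 bases, 2.1% were called higher and 7.2% lower. The 6 primitive endoderm markers summed to 23.1 to 34.5 CPM on day 3, against 71.2 to 77.5 on day 2, and the 8 fibroblast markers to 184 to 203, against 160.0 to 223. The 5 neural markers summed to 26.8 to 42.8, against 33.7 to 51.0. The primitive endoderm sums did not overlap between the days, and the fibroblast and neural sums did. The 8 primed markers summed to 306 to 314 CPM on day 3, against 565 to 569 on day 2, without overlap. The 8 naive markers summed to 45.5 to 72.8, against 66.1 to 70.1, with overlap. Their part in the result was not tested. The lower calls were 6 of 37 in complex I, 1 of 8 in complex III, 2 in complex IV and 5 of 17 in complex V.

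In complex V the alpha and beta subunits and a subunit c gene fell. Atp5b had 1098 and 1046 CPM on day 3, against 1479 and 1423 on day 2 (-0.45 ± 0.09, edgeR adjusted p = 0.00411). Atp5a1 had 769.7 and 717, against 942 and 895 (-0.31 ± 0.09, edgeR adjusted p = 0.0259). Atp5g2 had 145 and 118, against 216 and 222 (-0.74 ± 0.13, edgeR adjusted p = 0.00206). In all 3 genes both day 3 libraries lay below both day 2 libraries. In complex I the falls were in accessory subunits and in Ndufs7. Ndufa12, an accessory subunit, had 46.7 and 37.2 CPM on day 3, against 86.8 and 73.5 on day 2 (-0.94 ± 0.23, edgeR adjusted p = 0.0148). Ndufc2 had 30.4 and 35.3, against 61.2 and 57.1 (-0.86 ± 0.15, edgeR adjusted p = 0.00245), and Ndufs7 26.3 and 25.8, against 51.2 and 41.5 (-0.84 ± 0.18, edgeR adjusted p = 0.00712). Ndufb7 (-0.69), Cox7a2 (-0.51) and Cox7c (-0.39) were lower as well. The number of calls rested on single libraries. It was 3 without PNT day 2 replicate 1, 7 without PNT day 2 replicate 2 and 4 without PNT day 3 replicate 2. Ndufa12, Ndufb7 and Ndufs7 lost their calls without PNT day 2 replicate 1 or PNT day 3 replicate 2, Cox7a2 without replicate 1 of either day, and Atp5a1 and Cox7c without any one of the 4 libraries.

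kiPSC were then set against the last day of the course. Of 80 members 49 were higher and 2 lower in kiPSC than on PNT day 3 (29.3% and 28.6% of all genes), with a member median of 0.45 against 0.00 for all genes and 0.16 for those under 1000 bases. All 5 complexes took part, with 21 higher and 0 lower of 37 in complex I, 3 and 0 of 4 in complex II, 5 and 0 of 8 in complex III, 11 and 1 in complex IV and 9 and 1 of 17 in complex V. With the length trend removed the split was 42 higher and 3 lower. The 8 fibroblast markers summed to 110 to 305 CPM in kiPSC, against 184 to 203 on day 3, and the 6 primitive endoderm markers to 6.91 to 28.3, against 23.1 to 34.5. Both sets of sums overlapped. The 5 neural markers summed to 74.15 to 144 in kiPSC, against 26.8 to 42.8, and the 8 primed markers to 106 to 149, against 306 to 314, without overlap. The part of these markers in the result was not tested. This comparison shares its day 3 libraries with the one between days 2 and 3, so the low day 3 values enter both.

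Atp5b had 2230.5 and 2277 CPM in kiPSC, against 1098 and 1046 on day 3 (1.08 ± 0.09, edgeR adjusted p = 4.81e-08), and Atp5a1 had 1294 and 1178, against 769.7 and 717 (0.75 ± 0.09, edgeR adjusted p = 2.14e-06). Cox5a had 431 and 371, against 152 and 152 (1.41 ± 0.12, edgeR adjusted p = 5.59e-08). For these 3 abundant genes both kiPSC libraries lay well above both day 3 libraries. Atp5g1 had 327 and 235 CPM in kiPSC, against 111 and 88.0 on day 3 (1.51 ± 0.17, edgeR adjusted p = 1.55e-06), and Ndufb4 101 and 81.7, against 35.4 and 32.7 (1.43 ± 0.14, edgeR adjusted p = 4.77e-07). The largest log2 fold changes were in 2 isoforms that had fallen on day 1. Cox7a1 rose to 16.5 and 25.3 CPM in kiPSC, against 0.430 and 0.413 on day 3 (5.58 ± 0.47, edgeR adjusted p = 7.81e-08), and Cox6b2 to 77.9 and 42.6, against 7.16 and 5.17 (3.28 ± 0.30, edgeR adjusted p = 1.71e-07). Cox7b2 had 23 counts in kiPSC and 0 on day 3, which makes it at least 6.22-fold higher, and the filter kept it out of this fit.

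Of the other core subunits some were called and some were not. Uqcrc1 rose by 0.79 and Ndufv1, the NADH-binding flavoprotein, by 0.64 on the log2 scale. Cox4i1 (0.32) and Sdha, the flavoprotein of succinate dehydrogenase (0.28), were called by less, and these calls and that of Atp5g2 were lost without PNT day 3 replicate 2 (adjusted p = 0.102, 0.175 and 0.161). Sdha also lost its call without kiPSC replicate 1, and Cox4i1 and Atp5g2 without kiPSC replicate 2. Ndufs1 (0.21), Sdhb (-0.01) and Uqcrfs1 (-0.05) were not called. The lower members were Cox7a2l, at 97.8 and 113 CPM in kiPSC, against 144 and 169 on day 3 (-0.56 ± 0.12, edgeR adjusted p = 0.0011), and Atp5e, the epsilon subunit of ATP synthase (-0.40), whose call was lost without kiPSC replicate 1 or either day 3 library.

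**Figure D4:**
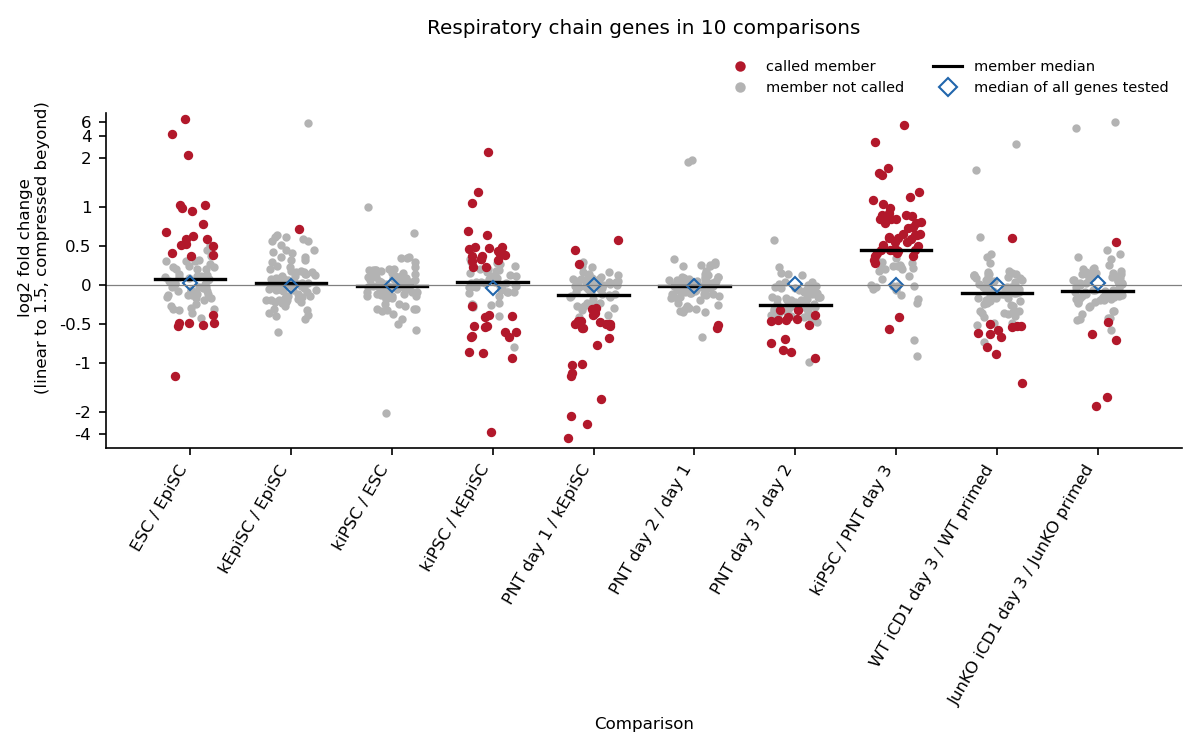
Log2 fold change of every member tested in 10 of the comparisons, linear to 1.5 and compressed beyond, with called members in red, others in grey, the member median as a bar and the median of all genes as a diamond. The bars sit on or near the diamonds in most columns, and lie at -0.25 for day 3 against day 2 and at 0.45 for kiPSC against day 3.

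Start and end of the transition were compared directly, with 20 members higher and 16 lower of 80 in kiPSC than in kEpiSC (28.2% and 29.2% of all genes) and a median of 0.04 against -0.03 for all genes. The 8 fibroblast markers summed to 110 to 305 CPM in kiPSC, against 41.9 to 51.5 in kEpiSC, with 6 higher and 1 lower of the 7 tested, and their part in the result was not tested. By complex the calls were 3 higher and 9 lower in complex I, 0 and 1 in complex II, 4 and 1 in complex III, 6 and 2 in complex IV and 7 and 3 in complex V. Cox7a1 had 16.5 and 25.3 CPM in kiPSC, against 3.71 and 4.09 in kEpiSC (2.40 ± 0.33, edgeR adjusted p = 1.44e-05). Cox5a had 431 and 371, against 177 and 172 (1.19 ± 0.11, edgeR adjusted p = 3.15e-07), and Atp5g1 had 327 and 235, against 129.8 and 141 (1.05 ± 0.16, edgeR adjusted p = 4.92e-05). None of these overlapped. Atp5b (0.43), Uqcrc1 (0.49) and Cox4i1 (0.40) were higher by less. Cox7b2 was at least 16.1-fold higher in kiPSC (23 counts against 0).

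The lower members were mostly in complex I. Ndufa4l2 fell to 2.27 and 2.97 CPM in kiPSC, against 31.1 and 38.1 in kEpiSC (-3.75 ± 0.67, edgeR adjusted p = 0.000174), and Ndufs7 to 39.9 and 57.6, against 91.8 and 91.2 (-0.93 ± 0.17, edgeR adjusted p = 0.000179). Ndufb3 (-0.87), Ndufs6 (-0.67) and, in other complexes, Atp5e (-0.86), Atp5g2 (-0.67) and Cox7c (-0.60) were lower. Cox6b2 was not among the calls, at 77.9 and 42.6 CPM in kiPSC and 50.04 and 47.8 in kEpiSC. Another treatment of length moved the split to 13 higher and 17 lower (effective-length offset) or 26 and 13 (trend removed), and Ndufs6 lost its call without kiPSC replicate 1, and Cox6a1, Cox7a2l and Cox7b lost theirs without kiPSC replicate 1 or without 1 of the kEpiSC libraries (replicate 1 for Cox6a1, replicate 2 for the others).

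kiPSC and ESC, the 2 naive groups, gave no called member. edgeR called 0 of 80 in either direction (0.0934% and 0.0503% of all genes), by unadjusted p under 0.05 4 were higher and 2 lower, and DESeq2 called 1 higher and 0 lower. The member median was -0.01. The values of Cox7a1 and Cox5a overlapped, with Cox7a1 at 16.5 and 25.3 CPM in kiPSC, against 22.1, 19.6, 14.5, 12.1 and 22.8 in ESC, and Cox5a at 431 and 371, against 332, 380.0, 349, 376 and 286. The largest positive difference was in Atp5l, with 143 and 131 CPM in kiPSC, against 63.4, 53.2, 77.3, 79.2 and 67.5 in ESC (log2 fold change 1.00 ± 0.19, edgeR adjusted p = 0.082), named after its values were seen. Under the alternatives its adjusted p lay between 0.000483 and 0.7, and it was called with DESeq2. The groups did not overlap in Atp5l and in 4 other members of the 80. How many of all genes lay apart in this way was not counted, so the number is no result about the members. The test used a spread estimated over the groups of all 13 libraries of the fit, and kiPSC had 2 libraries. Differences that are small against that spread could be missed.

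**Figure D5:**
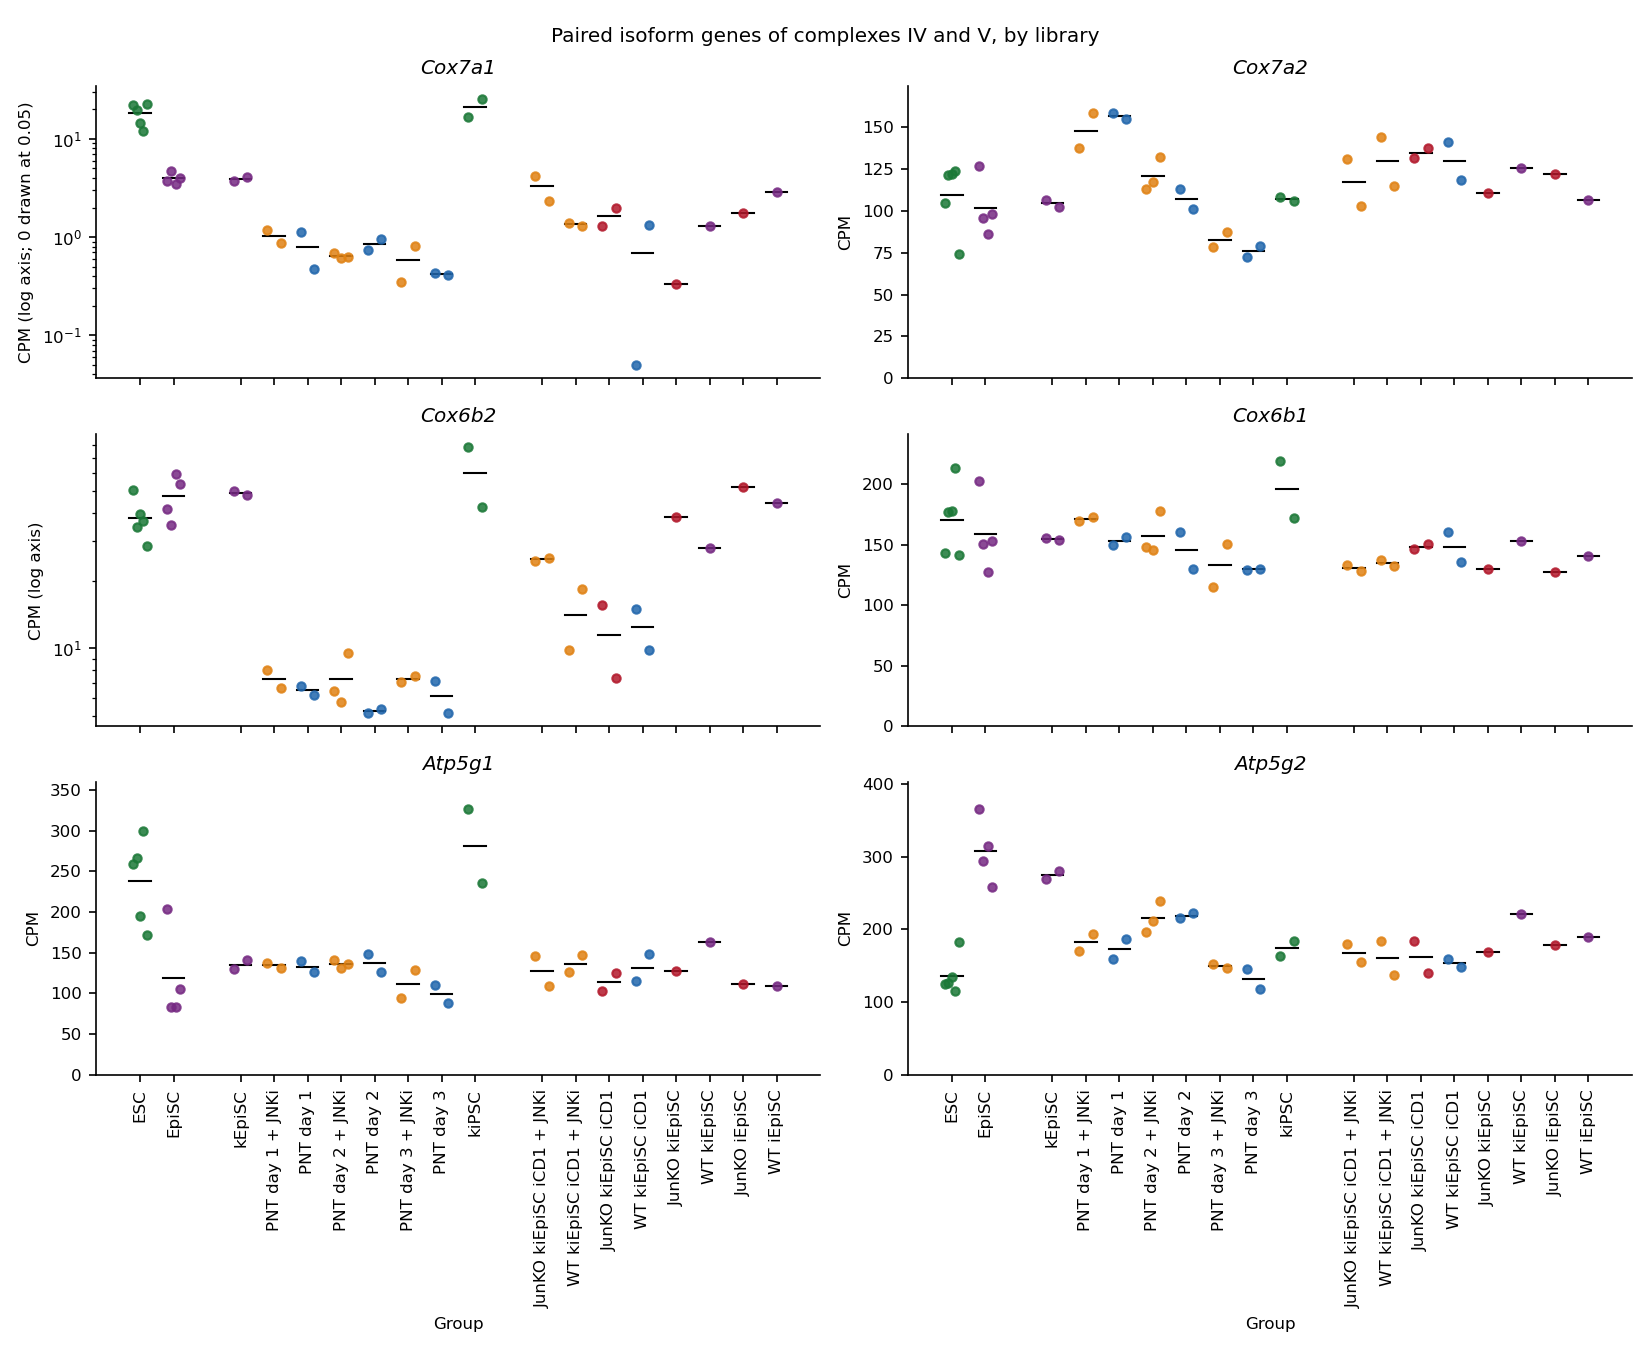
CPM of 3 gene pairs in every library, with a bar at the group mean, a log axis for Cox7a1 and Cox6b2 and axes from 0 for the others, coloured as in the plot of shares of counts. Cox7a1 and Cox6b2 drop between kEpiSC and PNT day 1 and stay low to day 3, while Cox7a2 and Cox6b1 do not drop on day 1. Cox7a2 falls afterwards, from day 1 to day 3. Atp5g1 is high in ESC and kiPSC and Atp5g2 high in EpiSC and kEpiSC.

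No member was called between PNT cells with and without JNKi on any day. On day 1 edgeR called 0 of 80 members in either direction (0.0% and 0.0% of all genes), and 0 had an unadjusted p under 0.05. On day 2 it called 0 (0.00672% and 0.0% of all genes), with 1 higher at an unadjusted p under 0.05. On day 3 it called 0 (0.0% and 0.0%), with 2 higher at that level, and DESeq2 called 0 on each day. The member median was 0.01 on day 1, 0.04 on day 2 and 0.11 on day 3, where 67 of 80 fold changes were above 0 and the median of all genes was 0.00. Atp5b on day 3 had 1083 and 1306 CPM with JNKi and 1098 and 1046 without. The 84 genes took 0.923% and 1.004% of counts in the JNKi libraries of day 3, against 0.911% and 0.875% without it. Cox4i2 had 1.76 and 1.08 CPM with JNKi on day 3, against 0.286 and 0.413 without, and Ndufa4l2 9.89 and 10.3, against 4.44 and 5.37, neither of them called.

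Loss of c-Jun likewise gave no called member at any of the 3 conditions compared. The filter left out Cox6a2, Cox7a1, Cox7b2, Cox8b and Cox8c here. In primed cells edgeR called 0 of 79 (0.222% and 0.135% of the 12613 genes tested), and 1 was higher and 1 lower at an unadjusted p under 0.05. In iCD1 on day 3 it called 0 (1.47% and 0.23%), with 3 higher and 0 lower at that level. In iCD1 with JNKi it called 0 (0.626% and 0.293%), with 3 higher and 1 lower, and DESeq2 called 0 in each. With no filter on low counts the numbers of called members were 1 (Ndufa4l2), 3 (Cox4i1 and Ndufa4l2 among them) and 1 (Cox4i1). Cox4i1 was higher in value in JunKO in all 3. It had 443 and 514 CPM in JunKO and 324 and 366 in WT cells in iCD1 (adjusted p = 0.0872), 477 and 411 in JunKO and 331 and 302 in WT cells with JNKi (adjusted p = 0.0836), and, in primed cells, 351 and 354 in JunKO against 251 and 266 in WT (adjusted p = 0.189). The JunKO libraries lay above the WT libraries in each condition, and the differences missed the threshold, but with no filter on low counts the adjusted p was 0.0166 in iCD1 and 0.0116 with JNKi. Cox4i1 overlaps Emc8 and a predicted gene, and reads from them may be split between entries. Ndufb7 had 69.4 and 80.9 CPM in JunKO, against 39.8 and 51.0 in WT cells in iCD1 (adjusted p = 0.0732), also short of the threshold. Ndufa4l2 had 0 counts in primed JunKO cells and 17 in primed WT cells (14 in kiEpiSC and 3 in iEpiSC), at least 5.65-fold lower. The bound rests mostly on 1 WT library, and Ndufa4l2 was not called (edgeR adjusted p = 0.633).

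JNKi in these lines gave no calls either. In WT kiEpiSC edgeR called 0 of 79 (0.333% and 0.151% of all genes), with 6 higher and 2 lower at an unadjusted p under 0.05, and in JunKO kiEpiSC 0 (0.0317% and 0.0159%), with 2 higher and 1 lower. DESeq2 called 0 in both. With no filter on low counts edgeR called 2 in WT, Ndufa4l2 among them, and 1 in JunKO, Cox6b2 (adjusted p = 0.00516). The difference between the 2 JNKi effects gave 0 calls (0.0% and 0.0%), with 1 in each direction at an unadjusted p under 0.05 and 0 by DESeq2. Cox6b2 had 24.5 and 25.3 CPM in JunKO cells with JNKi, against 15.6 and 7.41 without (adjusted p = 0.239). On the same scale it had 9.85 and 18.3 in WT cells with JNKi, against 15.02 and 9.87 without. The JunKO libraries with JNKi were the highest of the day 3 libraries for this gene.

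The second transition system, WT and JunKO kiEpiSC in iCD1, was set against its own primed cells. In WT cells 1 member was higher and 11 lower of 79 on day 3 (14.5% and 14.3% of all genes). The member median was -0.10, against -0.00 for all genes and -0.15 for those under 1000 bases. In JunKO cells 1 was higher and 5 lower (13.5% and 11.3%). The median there was -0.08, against 0.03 for all genes and -0.07 for those under 1000 bases. Of the 969 genes under 1000 bases, 5.8% were called higher and 14.6% lower in WT cells. In JunKO cells 65 of these shorter genes were higher and 97 lower. The member median in WT cells thus did not lie below that of genes under 1000 bases. The fits assume that the 2 single primed libraries of a genotype, labelled iEpiSC and kiEpiSC, vary like the other groups. With the term for line, the fold changes of this comparison are set against the fitted kiEpiSC level of the genotype. The iEpiSC library enters through the fit, and the fold changes are not taken against the mean of the 2 primed libraries. Cox6b2 fell to 15.02 and 9.87 CPM in WT iCD1 cells, against 44.0 and 27.8 in WT iEpiSC and kiEpiSC (-1.25 ± 0.40, edgeR adjusted p = 0.0367). In JunKO cells it fell to 15.6 and 7.41, against 52.0 and 38.1 (-1.70 ± 0.39, edgeR adjusted p = 0.00986). The sister gene Cox6b1 was not called in either genotype. Cox7c had 125 and 133 CPM in WT iCD1 cells, against 186 and 224 (-0.79 ± 0.14, edgeR adjusted p = 0.00184), and its JunKO fold change was -0.71. Atp5l and Sdhd were lower in both genotypes (-0.88 and -0.57 in WT, -0.63 and -0.47 in JunKO).

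Cox7a2l was the member that rose in both genotypes. It had 216 and 182 CPM in WT iCD1 cells, against 155 and 127 in WT primed cells (0.61 ± 0.17, edgeR adjusted p = 0.0221), and 0.55 on the log2 scale in JunKO. Cox4i2 had 17 counts in WT iCD1 cells against 1 in WT primed cells (ratio 16.9, counting interval 2.65 to 706) and 14 against 0 in JunKO cells (at least 4.14-fold higher), and neither was called. The counts of calls depended on single libraries. Without the kiEpiSC library of a genotype, its level is set from iEpiSC and the line difference in the other genotype. In WT they were 0 without WT kiEpiSC, 5 without WT iEpiSC, 3 without iCD1 replicate 1 and 5 without iCD1 replicate 2, and in JunKO 0 without JunKO kiEpiSC and 2 without JunKO iEpiSC or iCD1 replicate 1. The WT call of Cox6b2 was lost without any one of the 4 WT libraries those of Cox7c, Atp5l and Sdhd without WT kiEpiSC, and that of Cox7a2l without WT iEpiSC, WT kiEpiSC or WT iCD1 replicate 1. In JunKO, Cox6b2 and Cox7c lost theirs without JunKO kiEpiSC, and Cox7a2l, Atp5l and Sdhd without JunKO iEpiSC, JunKO kiEpiSC or JunKO iCD1 replicate 1. DESeq2 called 1 higher and 3 lower in WT and 1 and 2 in JunKO. The 8 fibroblast markers moved with this comparison, at 218 to 292 CPM in WT iCD1 cells, against 23.9 and 39.0 in WT primed cells, and 258 to 318 in JunKO iCD1 cells, against 17.9 and 28.3 in JunKO primed cells. Their part in the result was not tested.

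Other mitochondrial and energy genes were read from lists beside the subunits. On PNT day 1 the 21 glycolytic genes had 0 higher and 21 lower than in kEpiSC and a median of -1.78, against -0.13 for the respiratory chain. Over all genes, 23.2% were called higher and 23.1% lower on day 1. Slc16a3 fell to 19.8 and 23.6 CPM, against 733 and 881 in kEpiSC, and Pgk1, an ATP-making enzyme of glycolysis, to 478 and 455, against 2783 and 2997. The 77 mitochondrial ribosomal proteins had 2 higher and 24 lower on day 1 (median -0.21), 0 and 10 between days 2 and 3 (-0.20) and 28 and 6 in kiPSC against day 3 (0.22). Over all genes, 6.13% were higher and 6.1% lower between days 2 and 3, and 29.3% and 28.6% in kiPSC against day 3. Assembly factors of the chain had 5 higher and 17 lower of 47 on day 1 (-0.32) and 13 and 5 in kiPSC against day 3 (0.25). The 20 genes of the TCA cycle had 5 and 5 on day 1 (-0.01) and 11 and 2 in kiPSC against day 3 (0.35). Slc25a5, an ATP carrier of the inner membrane, fell by 0.67 on the log2 scale between days 2 and 3. For ESC against EpiSC the ribosomal proteins had 14 higher and 13 lower (0.00), the assembly factors 5 and 9 of 46 (-0.13), the TCA cycle 6 and 3 (0.09) and glycolysis 3 and 10 (-0.47). Of all genes, 27.1% were higher and 23.8% lower in ESC.

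Some known regulators of the module are described from the same fits, while Nrf1, Pprc1 and Esrra, which were read too, are not. Gabpa, an ETS factor that binds many respiratory chain promoters, had 196, 199, 192, 175 and 236 CPM in ESC, against 95.9, 117, 94.7 and 94.0 in EpiSC (log2 fold change 1.01), and 161 and 216 CPM in kiPSC, against 76.3 and 83.5 on PNT day 3 (1.25). The naive libraries (161 to 236 CPM) lay above all others (74.4 to 117). Gabpa overlaps the member Atp5j on the opposite strand, and the strand used in counting is not stated, so reads in the overlap cannot be told apart. Esrrb, an orphan nuclear receptor of the naive state, was 8.28 higher in ESC than in EpiSC and 6.45 higher in kiPSC than on day 3 on the log2 scale. Myc was lower in ESC than in EpiSC (-4.54), on day 1 than in kEpiSC (-2.20) and in kiPSC than on day 3 (-2.98). Ppargc1b was lower in ESC than in EpiSC (-1.24), and Ppargc1a, a coactivator of mitochondrial biogenesis in muscle and fat, stayed between 0 and 0.286 CPM in all 38 libraries. Tfam, which packages and transcribes mitochondrial DNA, was lower in ESC than in EpiSC (-0.58) and in kiPSC than in kEpiSC (-0.59).

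Some members share reads with other genes. Of the 84, 25 overlap another annotated gene, 24 of them on the opposite strand, including Ndufa4l2 with Shmt2, Ndufs1 with Eef1b2 and Atp5j with Gabpa. Expected counts were not whole in most libraries for Ndufb6, Atp5g2, Ndufs1, Atp5g1, Atp5f1, Atp5j, Ndufb5 and Cox5a, while 57 members had whole counts throughout. Cox7a1, Cox7a2, Cox6b1, Cox6b2, Cox7b2 and Ndufa4l2 are among those with whole counts in all 38 libraries.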

How the data were processed

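RNA from 38 mouse libraries was sequenced on a NextSeq 500 and, per the labels, prepared with a TruSeq RNA kit (the methods of the study name another kit). The authors mapped reads to mm10 with Bowtie2 and deposited RSEM gene tables of expected counts, TPM and gene lengths per library. The sources used here give neither tool versions nor the strand used in counting. The methods describe a mapping-quality filter and removal of mitochondrial reads. Symbols and gene types came from GENCODE M21, and 28756 of 29267 genes, with 99.68% of counts, had a symbol.

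Expected counts as deposited were rounded to whole numbers and tested with edgeR 4.0.16 (R 4.3.3, limma 3.58.1) by its quasi-likelihood F test, with TMM scaling, filterByExpr at a minimum of 10 counts and Benjamini-Hochberg adjustment over all genes at 0.05. Each standard error was derived from the fold change and its F value. Genes were fitted in 3 sets, of 13 libraries (ESC, EpiSC, kEpiSC and kiPSC, 13923 genes), 17 libraries (kEpiSC, PNT with and without JNKi, and kiPSC, 14892 genes) and 12 libraries (WT and JunKO, 12613 genes, where a line term separates iEpiSC from kiEpiSC). CPM in the text are TMM-scaled over all 38 libraries. TPM, deposited by the authors as RSEM gave them from effective lengths, were used for levels between genes. A "called" gene has an adjusted p under 0.05, and "short" genes are under 1000 bases. Bounds set 3 counts over a group at 0, and they and intervals cover counting error only. The scripts were tested on simulated data. DESeq2 1.42.0, RLE size factors, another filter, 2 treatments of length, all libraries in one fit, a replicate block and leaving out each library were the alternatives. Tables and figures used matplotlib 3.10.9, scipy 1.17.1, pandas 2.3.3 and numpy 2.4.6 under python 3.11.15.

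Named members were 10 core subunits, the isoform pairs, the highest and lowest of each complex by TPM, and for each comparison up to 5 called members per direction with the largest change, or all where 5 or fewer were called. Other members were named after their values were seen. From each pathway list up to 4 called genes a comparison could be named, and regulators anywhere. The naming rule that sets the members, and the lists, were chosen with earlier results of these data known. Nothing in the labels says that replicates came from separate cultures, so a p-value reflects no more than the spread among these libraries.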

Additional observations from a re-analysis of the deposited data

Results flagged for a closer look

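In groups of 4 or 5 libraries, 10 of the 78 groups of values examined had 1 library far from the others. Chance gives about 1 in 20 for independent values. The 78 are not independent, since each library enters many of them, so the 10 cannot be set against that rate. EpiSC replicate 1 stood above the other 3 EpiSC libraries for Uqcrc2 (284 CPM), Cox8a (225 CPM), Cox6a1 (177 CPM), Ndufv1 (169.7 CPM) and Atp5k (127 CPM), and its complex V genes summed to 13280.3 TPM, against 9737 to 10241 in the others. ESC replicate 3 stood apart for Ndufa4l2 (47.6 CPM, against 0.682 to 4.21 in the other ESC) and Cox4i2 (4.37 CPM, against 0.228 to 0.934). ESC replicate 5 stood apart for Atp5g2 (182 CPM, against 114 to 134) and was the only ESC library with a count of Cox6a2, the heart and muscle form of subunit 6A (0.117 CPM). With no count in the other ESC, any count of Cox6a2 would have been flagged. The groups of 2 and 3 libraries were too small for this check.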

How the results depend on the processing

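Of 137 alternative values of the numbers of called members, 114 lay within 1.5 times the reported number and 23 did not, beside those that left out a library, and the cause was not tested. For ESC against EpiSC (25 called) the number was 38 with the length trend removed, 39 with all 38 libraries in one fit and 10 with ESC replicate 5 only. For kEpiSC against EpiSC (1) it was 2 with DESeq2 and 8 in one fit. For kiPSC against ESC (0) it was 1 with the effective-length offset, the length trend removed, DESeq2 or one fit. One fit also gave 23 for kiPSC against kEpiSC (36), 0 for PNT day 2 against day 1 (2), 6 for day 3 against day 2 (14) and 6 for WT iCD1 against primed cells (12). DESeq2 gave 4 for day 2 against day 1, 4 for WT iCD1 against primed cells and 3 for JunKO (6). With no filter beyond 1 count the 0 calls became 1, 3 and 1 for JunKO against WT in primed cells, iCD1 and JNKi, and 2 and 1 for JNKi in WT and JunKO cells.

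Leaving out 1 library gave 20 to 33 calls for ESC against EpiSC, 0 to 1 for kEpiSC against EpiSC, 25 to 40 for kiPSC against kEpiSC, 17 to 21 for day 1, 0 to 3 for day 2, 3 to 10 for day 3, 41 to 49 for kiPSC against day 3, 0 to 5 for WT and 0 to 5 for JunKO iCD1 against primed cells, and 0 to 0 elsewhere. Same-numbered libraries were not shown to be pairs, with correlations of deviations between -0.055 and 0.283. A replicate block gave 28 calls for ESC against EpiSC, 2 for kEpiSC against EpiSC, 37 for kiPSC against kEpiSC, 29, 2 and 16 for days 1 to 3, 51 for kiPSC against day 3, 15 and 6 for WT and JunKO iCD1, 1 for JunKO against WT with JNKi and 0 elsewhere. Of 5864 values of named members under alternatives, 165 lost a call, 57 gained one and 1 called value turned, Cox8a in ESC against EpiSC (-0.27 with ESC replicate 5 only). The main fits called 93 values of named members. Most of the 5864 thus had no call to lose, and 165 of 5864 is not the rate at which calls were lost. Genes with few counts, such as Cox7b2, Cox4i2 and Cox6a2, were limited by depth.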

Other observations

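Carriers and factors around the chain were read for kiPSC against PNT day 3. Ckmt1, the mitochondrial creatine kinase, was 5.01 higher on the log2 scale, and Slc25a4, the muscle-type ATP carrier, was lower (-1.05). Mpc1, a subunit of the pyruvate carrier, was higher (2.35). Atpaf1, which helps to assemble the F1 part of ATP synthase, was higher in kiPSC (1.42) and lower on day 3 than on day 2 (-1.05), and both comparisons hold the same day 3 libraries. In ESC against EpiSC, Cycs, somatic cytochrome c, was lower (-1.02), Sco2, a copper chaperone of complex IV, was lower (-1.45), and Idh2, the mitochondrial NADP-dependent isocitrate dehydrogenase, was higher (1.29).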
